A study of Vitis vinifera and Vitis vinifera
Schisandra chinensis with 13 samples.

Results

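The genes described here are the 70 of 25819 grapevine genes whose deposited Gene Ontology (GO) annotation names microtubule-based movement. The rule reads that annotation and no expression value, although the term itself was picked with earlier results of these data known. The tested plants were Vs hybrids, *Vitis vinifera* scions grafted on *Schisandra chinensis* rootstocks, and they were set against Vv plants, which are *V. vinifera* on its own roots. Both kinds of plant had stood in the same area for 25 years and received no special treatment. Each group had 3 RNA-seq libraries, 1 per plant, and each library was a pool of RNA from leaf, phloem and ripe berry. A difference in such a pool cannot be assigned to an organ, and fewer cells of a type cannot be told apart from less RNA per cell. Levels are given as FPKM, fragments per length of transcript and per sequenced fragments, which is a level per length and can be compared between genes.

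Kinesins are motor proteins that use ATP to step along microtubules, the hollow filaments built of alpha and beta tubulin. Plant genomes hold many kinesin genes, and their products move vesicles and organelles, organize the spindle and the phragmoplast (the array that builds the new cell wall between daughter cells), and guide cellulose deposition. Plants have no cytoplasmic dynein, so kinesins that walk to the minus end do part of its work. All 70 genes also carried the terms for microtubule motor activity and microtubule binding, 56 carried the term kinesin complex, and 9 carried the term for plus-end-directed motor activity. In 29 of the 70, further GO terms named something else, such as a membrane or another enzyme activity, and 3 gene entries joined 2 annotated loci, so their values may come from more than 1 gene. Reads shared between near-identical kinesin copies could not be separated here, which leaves the levels of close paralogs uncertain. The values are assigned to genes as the deposited rows pair them, and the study itself lists most of its changed genes' values under other IDs, which makes the identity of each named gene depend on those rows. Within the deposited table, all 24 of the 70 entries with several transcripts had values with more than 7 decimals, as sums over transcripts can have, and 0 of the 46 entries with 1 transcript did.

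Most of these genes were at low levels. The minimum for testing, an average level of 1 FPKM across all 6 libraries, was reached by 28 genes, and 42 stayed below it. Of the 28, 7 had a mean of at least 10 FPKM, 15 lay between 2 and 10, and 6 were under 2. The 70 genes summed to 196, 216 and 183 FPKM in the Vs libraries, against 260, 290 and 235 FPKM in the Vv libraries, and these sums did not overlap. The sums were not scaled between libraries. The size factors of median-ratio scaling were 0.854, 0.977 and 0.920 for the Vs libraries and 1.12, 1.19 and 1.06 for the Vv libraries. Divided by these factors, the sums of the groups overlapped with all 70 genes included. Without MSTRG.16703 the unscaled sums were 193, 201 and 176 FPKM in the Vs libraries and 238, 246 and 172 FPKM in the Vv libraries. The groups then overlapped.

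**Figure D1:**
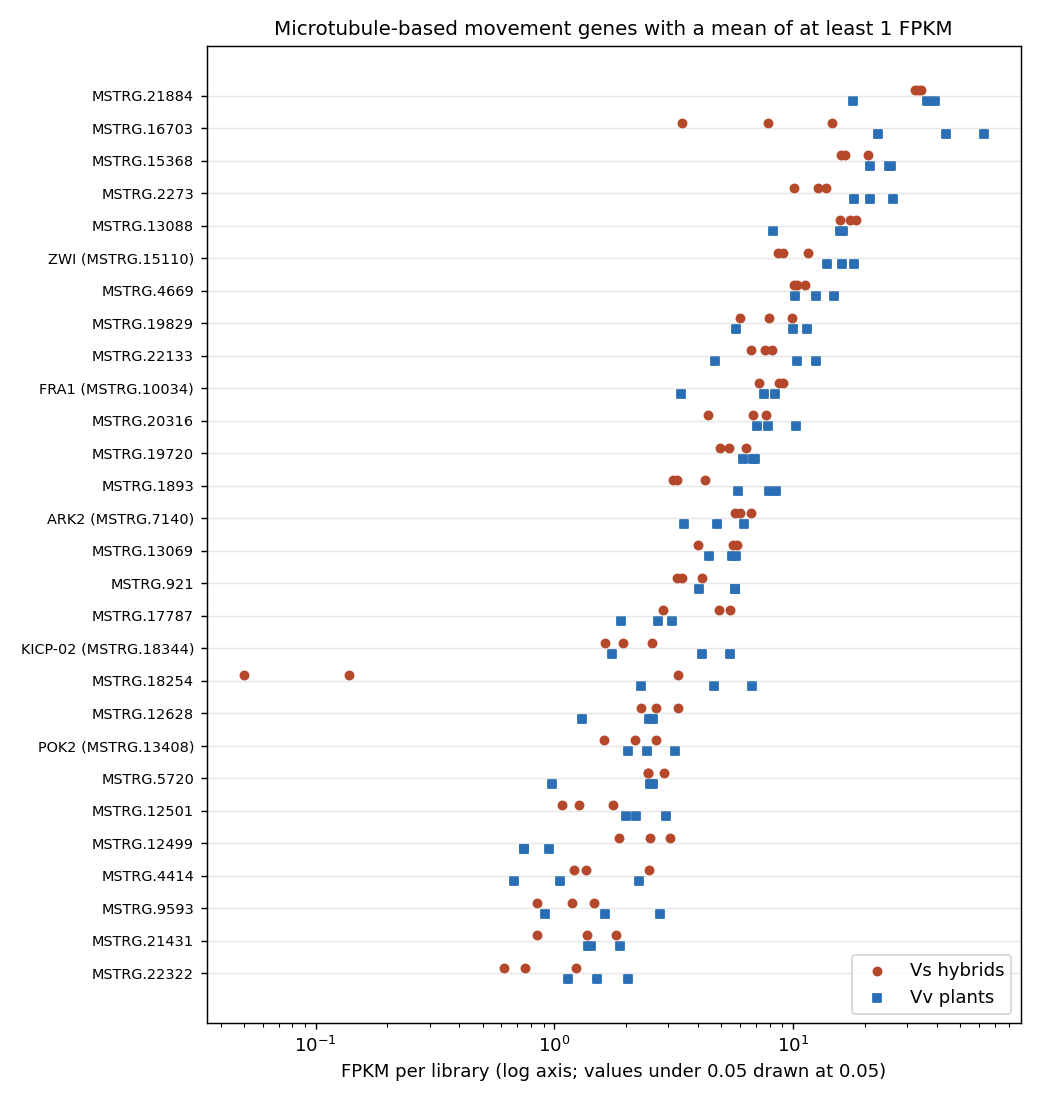
FPKM of the 28 tested genes in every library on a log axis, ordered by mean, with Vs hybrids as circles above Vv plants as squares. The groups overlap in 21 of the 28 genes, and MSTRG.16703, at 3.42 to 14.5 FPKM in Vs hybrids and 22.6 to 62.6 FPKM in Vv plants, is among the 7 in which they do not.

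No gene of the 28 passed an adjusted p under 0.05 in limma on log2(FPKM + 1) with Benjamini-Hochberg adjustment over all 15447 tested genes, where 0.557% of genes passed. The lowest adjusted p among the 28 was 0.156. At an unadjusted p under 0.05 there were 6 genes, 1 higher and 5 lower in Vs hybrids, beside 20.4% of all tested genes (3.96% higher and 16.5% lower). None reached the unadjusted threshold that the study combined with a fold change, p under 0.005 with an absolute log2 fold change above 1, which 2.83% of all tested genes reached. In unscaled FPKM the groups did not overlap in 7 of the 28, 1 higher and 6 lower in Vs hybrids, beside 31.8% of all tested genes (5.55% higher and 26.2% lower). Under median-ratio scaling they did not overlap in 11 of the 28, beside 24.6% of all tested genes, and the directions were not counted. The log2 fold change (Vs minus Vv) was below 0 in 19 of the 28 genes, which is 67.9% beside 67.5% of all tested genes, but in 12 under median-ratio scaling and in 15 under quantile normalization. The median was -0.20 for the 28 genes and -0.25 for all genes. Median-ratio scaling moved the all-gene median to -0.01 and that of the 28 genes to 0.03. Relative to all genes the median of the 28 lay 0.06 higher before and 0.04 higher after that scaling, but the difference was -0.01 without the third Vv library and 0.16 without the first. The intervals were wide: their median width was 1.21 on the log2 scale, and for 11 of the 28 genes the 95% interval lay between -1 and 1.

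**Figure D2:**
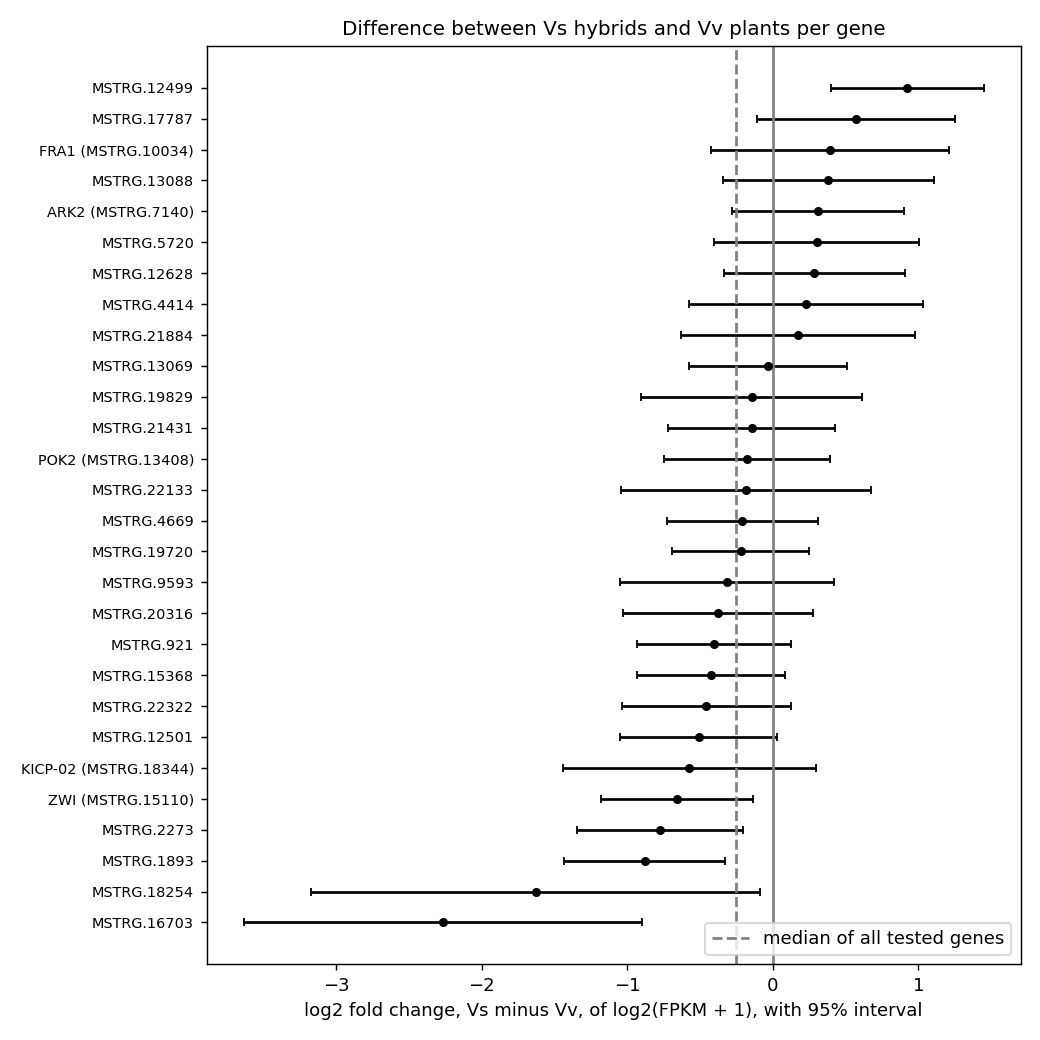
Log2 fold change (Vs minus Vv) of the 28 genes with 95% intervals from limma; the solid line is 0 and the dashed line the median of all tested genes, -0.25. The intervals of 22 genes include 0, and under median-ratio scaling 12 rather than 19 genes lie below 0.

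The largest difference was in MSTRG.16703 (VIT_06s0004g03810), a gene with the kinesin complex and plus-end-directed terms. It had 3.42, 14.5 and 7.82 FPKM in the Vs libraries, against 22.6, 43.8 and 62.6 FPKM in the Vv libraries. Every Vs library was below every Vv library, and the levels spread widely within both groups. The means were 8.57 ± 5.57 FPKM in Vs hybrids and 43.0 ± 20.01 FPKM in Vv plants (SD, n = 3 each), with a log2 fold change of -2.27 (SE 0.56, limma adjusted p = 0.163). It was the second most abundant of the 70 genes, with a mean of 25.8 FPKM over the 6 libraries. Within each group its libraries ranked in the same order as in the summed level of the 2 ripening-described genes, which was 30.2, 271 and 42.1 FPKM in the Vs libraries and 10.7, 586 and 1216 FPKM in the Vv libraries. Across the groups the order differed. The first Vv library had the lowest ripening sum of the 6, yet more MSTRG.16703 than any Vs library. The part of berry or other organ RNA in the difference of MSTRG.16703 was not tested.

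MSTRG.1893 (VIT_10s0071g01150) carried the katanin complex and microtubule severing terms. Katanin cuts microtubules, which frees filaments for reorientation of the cortical array. The gene had 3.26, 4.29 and 3.14 FPKM in the Vs libraries, against 5.88, 8.43 and 7.94 FPKM in the Vv libraries. The groups did not overlap, with a log2 fold change of -0.88 (SE 0.23, limma adjusted p = 0.166). Under median-ratio scaling the log2 fold change was -0.63. The same entry also carried a glycosyl hydrolase term.

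*ZWI* (MSTRG.15110) is named for the Arabidopsis ZWICHEL gene, which encodes a calmodulin-binding kinesin needed for trichome branching. It had 8.62, 11.6 and 9.08 FPKM in the Vs libraries, against 13.9, 17.9 and 16.0 FPKM in the Vv libraries. All Vs values were below all Vv values, and the log2 fold change was -0.66 (SE 0.22, limma adjusted p = 0.197). Under median-ratio scaling it was -0.39. MSTRG.2273 (VIT_11s0016g03960), in the kinesin complex, showed the same order, with 12.7, 13.7 and 10.1 FPKM in the Vs libraries against 20.9, 26.0 and 17.9 FPKM in the Vv libraries. Its log2 fold change was -0.77 (SE 0.24, limma adjusted p = 0.185), and -0.50 under median-ratio scaling.

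The other 2 genes whose Vs values all lay below the Vv values had smaller differences. MSTRG.15368, an entry joining VIT_05s0020g01200 and VIT_05s0020g01210, averaged 17.6 ± 2.54 FPKM in Vs hybrids and 23.9 ± 2.63 FPKM in Vv plants (SD, n = 3 each). Its log2 fold change was -0.42, and -0.14 under median-ratio scaling. MSTRG.12501 (VIT_02s0025g03480) had 1.08, 1.76 and 1.27 FPKM in the Vs libraries, against 1.98, 2.19 and 2.93 FPKM in the Vv libraries.

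MSTRG.12499 (VIT_02s0025g03490) has the locus tag next after that of MSTRG.12501. In unscaled FPKM it was the only one of the 28 tested genes higher in every Vs library than in any Vv library. After median-ratio scaling other genes were so too, among them *FRA1* and *ARK2*, described below. MSTRG.12499 had 2.52, 1.85 and 3.04 FPKM in the Vs libraries, against 0.950, 0.744 and 0.744 FPKM in the Vv libraries. The log2 fold change was 0.92 (SE 0.22, limma adjusted p = 0.156), and 1.09 under median-ratio scaling. Its other GO terms name the mitochondrial inner membrane and transmembrane transport, and it has no kinesin complex term.

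MSTRG.18254 (VIT_07s0205g00150), named after its values were seen, had an unadjusted p under 0.05 although its groups overlapped. It had 3.31, 0.139 and 0 FPKM in the Vs libraries, against 4.67, 6.74 and 2.30 FPKM in the Vv libraries. The first Vs library lay within the range of the Vv libraries, and the log2 fold change was -1.63 (SE 0.64, limma adjusted p = 0.230). Without that library it was -2.30, without the third Vs library -1.25, and with a pseudocount of 0.1 it was -3.30. Its other terms name histone binding and the Set1C/COMPASS complex, which methylates histone H3.

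**Figure D3:**
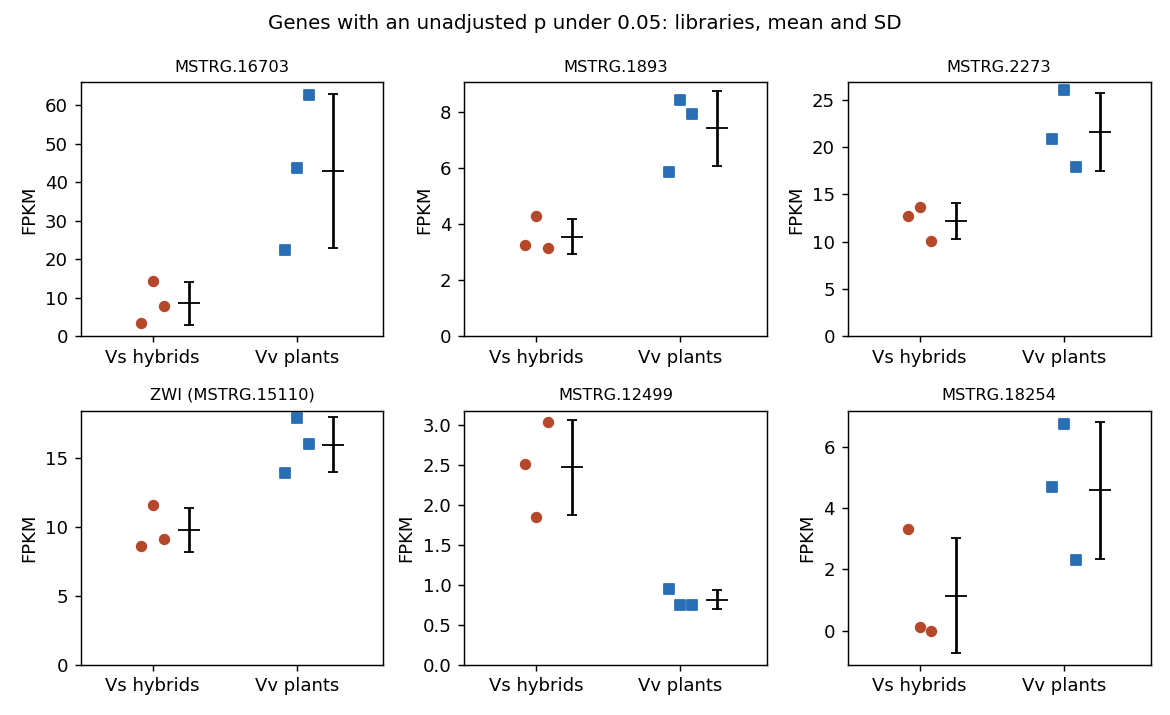
FPKM in each library of the 6 genes with an unadjusted p under 0.05, Vs hybrids on the left and Vv plants on the right, with the mean and SD beside the points. MSTRG.12499 is higher in all 3 Vs libraries, MSTRG.16703, MSTRG.1893, MSTRG.2273 and *ZWI* are lower in all 3, and MSTRG.18254 overlaps at 3.31 FPKM in Vs hybrids.

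Among genes with roles known from Arabidopsis, *FRA1* (MSTRG.10034), a kinesin that acts in cellulose deposition and cell wall strength, had 8.72, 9.05 and 7.17 FPKM in the Vs libraries against 7.54, 8.40 and 3.37 FPKM in the Vv libraries. These unscaled groups overlapped, and the log2 fold change was 0.39 (95% interval -0.42 to 1.21). Under median-ratio scaling it was 0.65 (limma adjusted p = 0.386), and the groups did not overlap. *ARK2* (MSTRG.7140), an armadillo-repeat kinesin, had 5.70, 6.65 and 5.97 FPKM in the Vs libraries against 6.23, 4.79 and 3.47 FPKM in the Vv libraries, which also overlapped. Its log2 fold change was 0.31, and 0.56 under median-ratio scaling (limma adjusted p = 0.337), where the groups did not overlap. *KICP-02* (MSTRG.18344) averaged 2.04 ± 0.481 FPKM in Vs hybrids and 3.76 ± 1.87 FPKM in Vv plants (SD, n = 3 each). The smallest difference of the 28 was in MSTRG.13069 (VIT_03s0038g00350), with a log2 fold change of -0.03 (95% interval -0.57 to 0.51).

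Both genes annotated with chloroplast accumulation movement, by which chloroplasts gather toward weak light, were tested. MSTRG.21884 (VIT_00s0313g00080) was the most abundant of all 70 genes, and its description does not name a kinesin. It had 34.2, 32.4 and 33.3 FPKM in the Vs libraries, against 39.3, 36.1 and 17.7 FPKM in the Vv libraries. MSTRG.22133 (VIT_00s0407g00080) had 7.58, 6.63 and 8.12 FPKM in the Vs libraries, against 10.4, 12.4 and 4.72 FPKM in the Vv libraries. In both genes the third Vv library was the lowest of the 6 and the other 2 Vv libraries were the highest.

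That library was the lowest of the 6 in 10 of the 28 genes, beside 8 for the first Vs library and 9 for the third. The counts for the first and second Vv libraries were 1 and 0. Among the Vv libraries alone, the third was the lowest in 19 of the 28 genes. In leaf markers the third Vv library stood apart. The 16 antenna protein genes of the photosynthesis pathway summed to 8002, 6613 and 10895 FPKM in the Vs libraries, against 6483, 5756 and 909 FPKM in the Vv libraries. The sum of the 2 genes described as ripening-related or ripening-induced was also highest there, at 1216 FPKM. The part of organ proportions in the values above was not tested. Without the third Vv library the median log2 fold change of the 28 genes was -0.31. That of MSTRG.21884 was then -0.17 in place of 0.18, that of *FRA1* (MSTRG.10034) 0.05 in place of 0.39, and that of *ARK2* (MSTRG.7140) 0.13 in place of 0.31. The groups then did not overlap in 15 of the 28 genes, beside 43.0% of all tested genes, and fewer libraries make such separation more frequent for any gene.

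Of 4 entries with symbols of Arabidopsis kinesins of cell division, picked by symbol after the values were seen, 1 was tested. POK1 and POK2 position the division plane in Arabidopsis. The *POK2* entry (MSTRG.13408), which joins 2 loci, averaged 2.14 ± 0.522 FPKM in Vs hybrids and 2.56 ± 0.581 FPKM in Vv plants (SD, n = 3 each). *POK1* (MSTRG.15328) had 0.255, 0.151 and 0.0675 FPKM in the Vs libraries, against 0.0681, 0.171 and 0.210 FPKM in the Vv libraries. *HIK* (MSTRG.8717), named for HINKEL, a kinesin of cytokinesis, averaged 0.350 FPKM over the 6 libraries. *TES* (VIT_11s0016g00460), for TETRASPORE, which acts in cytokinesis after male meiosis, averaged 0.219 FPKM. Of the markers of dividing cells only 2 genes were matched, *CYCB3* and a histone H4 gene. They summed to at most 0.139 FPKM in the Vs libraries and, in the Vv libraries, to 91.6, 0.0316 and 0.0697 FPKM, the first of which came from histone H4.

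Of the 42 genes below the minimum, 13 were listed at 0 FPKM in at least 1 library, and 8 reached 1 FPKM in at least 1. In 21 of the 42 the Vs mean was above the Vv mean. The groups did not overlap in 5 of them: MSTRG.5569, MSTRG.9856, MSTRG.1058 and VIT_17s0000g04330 were higher in every Vs library and *TES* was lower. For neither count was the share over all genes below the minimum computed, so neither sets these genes apart. With no filter, the groups did not overlap in 17.1% of the 70 genes, beside 24.1% of all genes. A few were high in a single library. MSTRG.17786 (VIT_07s0005g00930) had 4.11 FPKM in the first Vv library and at most 0.203 FPKM in any other.

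Among the related lists, no tested gene passed the adjusted threshold in limma, and the counts given here are at an unadjusted p under 0.05, where 3.96% of all tested genes were higher and 16.5% lower in Vs hybrids. Of all tested genes 67.5% lay below 0, or 51.0% under median-ratio scaling. Of 13 tested tubulin genes, which encode the track, 2 were higher and 1 was lower in Vs hybrids. The tubulin median log2 fold change was 0.30, with 5 of 13 below 0, and 2 of 13 under median-ratio scaling. MSTRG.19109 (VIT_08s0040g00980), a tubulin beta chain, had 31.4, 16.6 and 16.5 FPKM in the Vs libraries, against 5.19, 7.01 and 8.18 FPKM in the Vv libraries. Its groups did not overlap, with a log2 fold change of 1.49 (SE 0.32, limma adjusted p = 0.142).

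Of 85 other microtubule genes tested, which include the tubulins, 4 were higher and 13 lower, and 64 had a log2 fold change below 0, or 51 under median-ratio scaling. Of 11 genes of actin-based motors (myosins), 0 were higher and 2 lower, and 9 lay below 0, or 7 under median-ratio scaling. Of 152 cell cycle genes, 1 was higher and 28 lower, and 119 lay below 0, or 89 under median-ratio scaling. Of 26 DNA replication genes, 1 was higher and 8 lower, and 23 lay below 0, or 17 under median-ratio scaling. Of 10 phragmoplast and cytokinesis genes, 0 were higher and 1 lower.

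**Figure D4:**
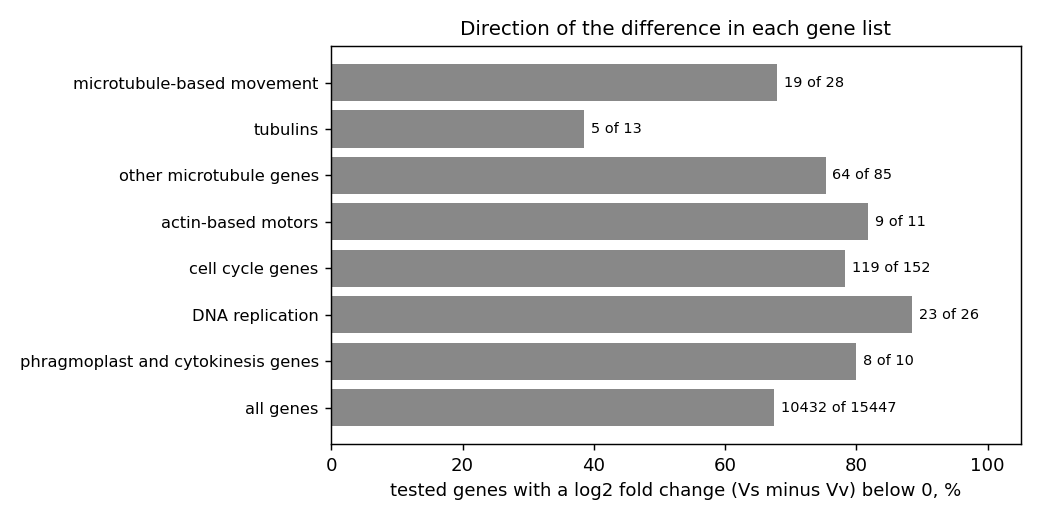
Share of tested genes in each list with a log2 fold change (Vs minus Vv) below 0, with the counts beside the bars. The 28 genes stand at 67.9%, beside 67.5% of all tested genes and 38.5% of the tubulins; under median-ratio scaling 12 of the 28 and 2 of the 13 tubulins lie below 0.

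Small RNA sequencing of the same plants and a degradome library, which captures the ends left when an RNA is cut, bear on whether microRNAs cut these transcripts. The deposited predictions held 18 pairs of a small RNA and a transcript of 9 of the 70 genes, with 9 distinct small RNA sequences. Several pairs repeat 1 small RNA sequence over transcripts of the same gene or under another name, so the 18 are not independent. In none of the 18 was a degradome cut detected, beside 17.6% of all 8858 pairs. Of the paired genes, VIT_07s0205g00140, VIT_14s0060g01570 and MSTRG.1807 averaged only 0.288, 0.036 and 0.011 FPKM, where a cut could easily be missed. The degradome came from 1 pool of all samples, so it allows no comparison between groups. The degradome table also holds 2 transcripts with this term that matched no entry of the gene table used here. A cut was listed as detected in 1 of them, VIT_19s0027g00080.t01, with only 1 read in category 4, which is weak evidence. Its small RNA had 3 counts in the second Vv library and 0 in every other library. The 3 most counted of the small RNAs paired with the 70 genes are shown because the others had at most 2.5 counts in any library. Capitals mark the seed, bases 2 to 8, and T stands for U.
stu-miR172b-5p_2ss2CT7CT: gTAGCATCatcaagattcaca
vvi-miR3633b-5p_R-1: gGAATGGGtggctgggatct
gma-miR159a-5p_R-1: gAGCTCCTtgaagtccaatt

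The miR172 5p sequence was paired with VIT_07s0205g00140, a gene annotated with mitotic sister chromatid segregation, at an alignment score of 3.5 (lower means closer pairing). It had 843, 645 and 615 CPM (counts scaled to the listed small RNA reads of each library) in the Vs libraries, against 1080, 1190 and 713 in the Vv libraries, and the groups overlapped. The sequence is also listed under another name with the same fractional counts, and the CPM use a single listing. How reads were shared between names was not stated, so these CPM may understate its level. The miR3633b sequence was paired with MSTRG.17787 (VIT_07s0005g00940) at a score of 4 and had 255, 136 and 243 CPM in the Vs libraries, against 201, 221 and 141 in the Vv libraries, which overlapped. MSTRG.17787 itself averaged 4.38 ± 1.36 FPKM in Vs hybrids and 2.57 ± 0.615 FPKM in Vv plants (SD, n = 3 each). The miR159a 5p sequence was paired with VIT_14s0060g01570, a gene that averaged 0.036 FPKM. This small RNA had 7, 3 and 7 raw counts in the Vs libraries, against 20, 18 and 42 in the Vv libraries. As CPM these were 5.64, 2.83 and 5.07 against 11.6, 9.99 and 29.2, and the groups did not overlap. The share of all small RNAs without overlap was not computed. No test was run on these small RNAs.

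The GO column of the gene table leaves some genes out. The degradome table gives the same term to 3 gene entries that have no GO annotation in the gene table and are therefore not among the 70. MSTRG.11801 (VIT_19s0015g01160) had 11.3, 14.6 and 12.7 FPKM in the Vs libraries, against 15.2, 22.7 and 32.1 FPKM in the Vv libraries. MSTRG.5571 (VIT_14s0128g00470) had 36.3, 35.5 and 45.0 FPKM in the Vs libraries, against 43.8, 46.0 and 17.2 FPKM in the Vv libraries. With these entries added, 0 of 31 genes passed the adjusted threshold.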

How the data were processed

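RNA of leaf, phloem and berry was pooled per plant. Per the labels and the study's methods, the authors used HISAT for mapping to the grapevine genome and deposited FPKM from StringTie. Its build was not given in the sources used here. FPKM tables keep no read depth. The authors deposited small RNA values as estimated counts, some of them fractional; each distinct sequence was used once in the totals, which ran from 1060298 to 1802621. The deposited degradome table gives a read count, a category score, an alignment score and a p-value per pair.

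Genes averaging 1 FPKM or more were tested with limma 3.58.1 (R 4.3.3) on log2(FPKM + 1), pseudocount 1, which understates changes of low genes. The procedure was tested on simulated data in which large changes were added to genes of higher level. Those changes were larger than the changes of nearly all genes named here, so that test does not bear on small changes. The members and lists were chosen with earlier results of these data known. Named genes were those past the adjusted threshold, the 12 largest changes with groups apart (7 existed), the smallest change and the most abundant gene not described as a kinesin. Genes with a symbol or an unadjusted p under 0.05 were added after the values were seen. Of those with a symbol, *MRH2*, *ATKP1*, *ATN* and *ZCF125*, all below the minimum, are not described. Other genes, such as MSTRG.22133, MSTRG.17786 and MSTRG.17787, were named outside these criteria. A planned naming by kinesin subfamily was not applied, because the tables used here pair no locus tag with a product name. Planned markers by product name were replaced by deposited gene symbols for phloem and by deposited descriptions for berry.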

Additional observations from a re-analysis of the deposited data

How the results depend on the processing

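No gene of the 28 passed the adjusted threshold under any of the 14 alternatives. The count past the study's unadjusted threshold was 1 in place of 0 with a pseudocount of 0.1, under median-ratio scaling and under quantile normalization (MSTRG.12499), and 0 to 1 when 1 library was left out. Genes below 0 numbered 12 under median-ratio scaling and 40 of 70 with no filter, and the median log2 fold change was 0.0289 under median-ratio scaling. Genes whose groups did not overlap numbered 12 of 70 with no filter (24.1% of all genes), 11 of 28 under median-ratio scaling (24.6%) and 11 under quantile normalization (24.7%), and 10 to 15 when 1 library was left out (38.2 to 45.9%). Genes at an unadjusted p under 0.05 numbered 3 to 8 when 1 library was left out, with 3 without the third Vs or the second Vv library, where 13.9% and 14.1% of all genes passed; this count was added after the data were seen. MSTRG.13069 turned to 0.22 under median-ratio scaling, 0.18 under quantile normalization, and ranged between -0.128 and 0.108 when 1 library was left out, above 0 without the third Vs, first Vv or second Vv library. The *POK2* entry turned to 0.0256 under median-ratio scaling, and MSTRG.21884 to -0.174 without the third Vv library, within -0.174 to 0.379 when 1 library was left out. The causes were not tested. Of 196 values for the 14 tested genes named by the criteria above, 189 kept direction and side of the threshold.

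Replicate numbers did not pair the plants: deviations of same-numbered libraries correlated at 0.169, -0.0468 and 0.0375. With the replicate block, 0 genes of all 15447 passed in place of 86, and 1 of the 28 passed the study's unadjusted threshold (MSTRG.16703). FPKM without counts leaves the depth of each library unknown.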
